A study of Homo sapiens with 12 samples.

Results

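The genes described here are the fusion partners of the BCR-ABL1 oncogene and the STAT5 signalling and survival genes linked to it in K562, an established cell line from chronic myelogenous leukaemia. They were chosen by name: BCR, ABL1, STAT5A, STAT5B, PIM1, PIM2, SOCS2, CISH, BCL2L1 and MCL1. All 10 were found by Ensembl identifier among the 17786 genes of the count table, each with 1 row, and all 10 were among the 13598 genes that passed the filter on low counts. Messenger RNA was sequenced in 12 libraries. Cultures were left untreated (4 libraries) or kept for 24 h in 2 mM alpha-ketobutyrate, called AKB (4), or in 2 mM pyruvate (4). AKB and pyruvate are 2-oxo acids that lactate dehydrogenase can reduce while it turns NADH into NAD+, and the series compares the responses to them as electron acceptors. All libraries come from this single cell line, and the labels do not say whether the 4 of a group were grown separately, so each p-value rests on the spread between these libraries alone, and that spread may be technical.

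BCR-ABL1 arises when the 5′ part of BCR on chromosome 22 is joined to the tyrosine kinase gene ABL1 on chromosome 9. The fusion kinase is active without a ligand and phosphorylates STAT5A and STAT5B, a pair of closely related transcription factors that cytokine receptors otherwise activate through JAK kinases. STAT5 then raises transcription of the kinases PIM1 and PIM2, of the feedback inhibitors CISH and SOCS2, and of BCL2L1, whose product BCL-XL, like that of MCL1, keeps cells alive by binding pro-apoptotic BCL2 family proteins. STAT5 activity lies in phosphorylation of the protein, which mRNA levels do not measure.

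The first sequences show why the BCR and ABL1 counts cannot be read as counts of the fusion. In K562 the fusion transcript is known to join BCR exon 14 to ABL1 exon 2. The last 30 bases of BCR exon 14 (chr22:23290384-23290413, plus strand) and the first 30 of ABL1 exon 2 (chr9:130854064-130854093, plus strand) are given below from the longest GENCODE 29 transcripts on GRCh38, followed by the reference exons joined in that order, with the ABL1 part in capitals.
BCR exon 14 end: actcagccactggatttaagcagagttcaa
ABL1 exon 2 start: AAGCCCTTCAGCGGCCAGTAGCATCTGACT
joined exons: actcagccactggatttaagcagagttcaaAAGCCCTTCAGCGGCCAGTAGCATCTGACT
Of the 7082 bases of this BCR transcript, 3533 (49.9%) lie at or before the end of exon 14, and of the 5766 bases of the ABL1 transcript, 5306 (92.0%) lie in exon 2 or after it. Fragments of the fusion mRNA that lie within these parts have the sequence of the unrearranged gene, so in a count per gene the fusion and the normal alleles cannot be told apart.

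The second sequence shows where the STAT binding motif occurs in the promoter of CISH. STAT dimers bind the palindrome TTCNNNGAA, which reads the same on both strands, and CISH is a textbook STAT5 target. In the RefSeq promoter table (GRCh38.p14, 300 bases per gene start), 8 of the 10 genes were matched, with 11 entries, and SOCS2 and MCL1 were not. The CISH promoter held 4 copies of the motif, and the other 10 entries (BCR, ABL1, STAT5A, STAT5B, PIM1, PIM2 and BCL2L1) held 0. Among the 35116 promoters listed there, 2689 (7.66%) held at least 1 copy and 7 (0.0199%) held 4, the most found in any. The 250 bases before the CISH start (chr3:50611775-50612024, minus strand) are printed with the motifs in capitals. The copies begin 241, 230, 129 and 112 bases before the start.
CISH promoter: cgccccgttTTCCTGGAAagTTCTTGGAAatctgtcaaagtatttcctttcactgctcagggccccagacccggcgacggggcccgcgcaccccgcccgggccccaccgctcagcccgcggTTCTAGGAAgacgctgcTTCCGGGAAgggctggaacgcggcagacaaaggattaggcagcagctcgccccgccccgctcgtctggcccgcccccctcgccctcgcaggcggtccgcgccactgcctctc
None of these motifs overlapped another. A match of letters describes the window and is not a measured binding site.

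Some counts in this set share sequence with other genes. Of the 4271 stretches of 31 bases in the longest STAT5A transcript 687 (16.1%) also occur in STAT5B, and of 7052 in BCR 1398 (19.8%) occur in other genes, most of them in the pseudogene BCRP2 (1088). The split of reads between STAT5A and STAT5B, and between BCR and its pseudogenes, is therefore uncertain. The longest transcripts of ABL1, PIM2, CISH, BCL2L1 and MCL1 shared 0 such stretches. Exons of CISH overlap those of MAPKAPK3 on the opposite strand, those of BCL2L1 overlap ABALON, and those of SOCS2 overlap SOCS2-AS1, while MCL1 has ADAMTSL4-AS1 on its own strand. Strand-specific counting is not stated for these files.

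Total counts per library ran from 15353200 to 21301073. Of the markers of this erythroid line, GATA1, TAL1, KLF1, LMO2, HBG1, HBG2 and TFRC each had at least 61.7 CPM in every library, where CPM is the counts-per-million level on the TMM-scaled library size. Of the markers of other blood cells, CD3E, CD4 and CD14 reached at most 0.836 CPM, and CD3D was at 1.95 to 3.37 CPM. Pyruvate replicates 3 and 4 stood apart from the other 10 libraries along GC content. The slope of log2 CPM, less its 12-library average, on GC content was 0.328 and 0.348 for each 10 percentage points in these libraries and −0.155 to 0.018 elsewhere. The members' differences with pyruvate are given with these libraries, without them, and with an offset that removes the GC trend of each library (the GC offset).

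No member passed the test in any of the 3 comparisons when all 12 libraries were fitted. A gene was called where the adjusted p of edgeR's quasi-likelihood test was under 0.05. With AKB against untreated cells 0 of the 10 genes were called, where 1.97% of all genes tested were (1.37% higher and 0.603% lower). With pyruvate against untreated cells it was 0 of 10 against a background of 1.95% (1.02% higher and 0.927% lower), and with AKB against pyruvate 0 of 10 against 3.13% (1.94% higher and 1.19% lower). Without adjustment, edgeR's p was under 0.05 for 3 members in each comparison, against 13.2%, 28.9% and 24.2% of all genes. DESeq2's Wald test called 2 members with AKB, 2 with pyruvate and 1 between the treatments, where it called 3.8%, 15.2% and 12.2% of all genes. With the GC offset edgeR called 2, 2 and 2 members, against 8.4%, 9.36% and 14.4% of all genes. Without pyruvate replicates 3 and 4 it called 3, 0 and 1, against 9.17%, 0.71% and 4.36%.

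The estimated differences were small. The median log2 difference of the 10 genes was −0.067 with AKB (−0.21 to 0.22), where the median over all genes was 0.0061. With pyruvate it was 0.031 (−0.13 to 0.39), against −0.0082 for all genes. Between AKB and pyruvate it was −0.075 (−0.43 to 0.16), against 0.025. The median size of the difference, regardless of sign, was 0.094 against 0.120 for all genes with AKB, 0.106 against 0.208 with pyruvate, and 0.125 against 0.182 between the treatments. The lowest and the highest bound of the 95% intervals with AKB were −0.42 (BCL2L1) and 0.42 (PIM1). With pyruvate they were −0.28 (PIM2) and 0.76 (BCL2L1). The 4 untreated libraries serve in the comparisons of both AKB and pyruvate, which are therefore not independent.

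**Figure D1:**
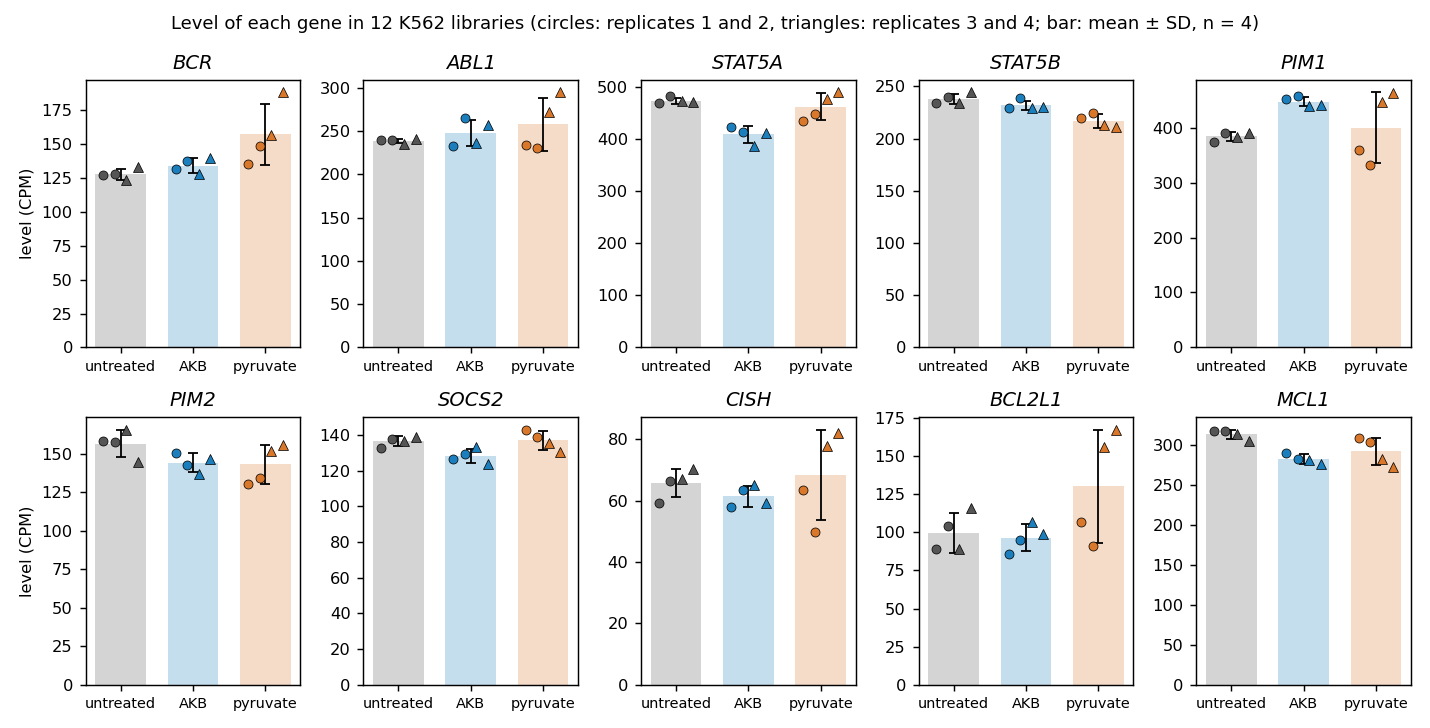
Level of each of the 10 genes in CPM (vertical axes, from 0) in the untreated, AKB and pyruvate groups, with 1 point per library, bars for the mean and error bars for the SD of 4 libraries. The triangles of pyruvate replicates 3 and 4 stand above its circles for BCL2L1 (156 and 167.2 against 106.8 and 91.15 CPM), and the 4 AKB points of STAT5A lie below all untreated points.

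The fusion partner BCR was at 126.7, 127.5, 123.2 and 133.2 CPM in untreated replicates 1 to 4. With AKB it was at 131.6, 137.3, 127.5 and 139.5 CPM, a range that overlaps the untreated one. With pyruvate it was at 134.8, 148.7, 156.7 and 187.8 CPM, and all 4 libraries lay above all untreated ones, as they did for 4.89% of all genes. The log2 difference with pyruvate was 0.30 (SE 0.087, adjusted p = 0.0785). It was 0.15 without pyruvate replicates 3 and 4 (adjusted p = 0.247) and 0.059 with the GC offset (adjusted p = 0.672). BCR with pyruvate passed by DESeq2's Wald test on all 12 libraries (0.31, adjusted p = 0.0174), and by edgeR without pyruvate replicate 1 (adjusted p = 0.016) or 2 (0.0319). BCR has the highest GC content of the set, 60.6%.

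ABL1, the kinase partner, was at 238.9, 239.1, 235.3 and 240.7 CPM in untreated cells, the narrowest spread of the 10 genes relative to its mean. It stood at 233.1, 265, 236.5 and 256.2 CPM with AKB and at 233.8, 230, 271.4 and 294.3 CPM with pyruvate, and both ranges enclosed the untreated one. The log2 difference was 0.055 with AKB (SE 0.080, adjusted p = 0.844) and 0.11 with pyruvate (SE 0.080, adjusted p = 0.349). The pyruvate estimate turned to −0.040 without replicates 3 and 4 and to −0.12 with the GC offset. In AKB-treated cells the 95% interval of the difference ran from −0.12 to 0.23 for ABL1 and from −0.12 to 0.26 for BCR.

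STAT5A had the smallest adjusted p of any member. It was at 468.9, 481.9, 472.8 and 471.4 CPM in untreated cells and at 424, 413, 387.1 and 411.7 CPM with AKB. All 4 AKB libraries lay below all untreated ones, as they did for 8.41% of all genes. The log2 difference was −0.21 (SE 0.052, 95% interval −0.32 to −0.10, adjusted p = 0.0615). With pyruvate STAT5A was at 434.8, 447.3, 477.1 and 489.5 CPM, overlapping the untreated range (log2 −0.036, adjusted p = 0.645). This difference was −0.10 without replicates 3 and 4 (adjusted p = 0.311) and −0.22 with the GC offset (0.0569). Against pyruvate the AKB libraries were again all lower, as for 4.54% of genes (log2 −0.18, SE 0.052, adjusted p = 0.0755).

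In several other fits STAT5A did pass with AKB. Without pyruvate replicates 3 and 4 its log2 difference was −0.21 (adjusted p = 0.00433), with the GC offset −0.28 (0.0229), with the 8 untreated and AKB libraries alone −0.21 (0.00556), and by DESeq2's Wald test −0.22 (0.00334). Leaving out pyruvate replicate 1 or 2 alone also gave a call (adjusted p = 0.0482 and 0.0476). The size of the AKB difference was thus between −0.28 and −0.18 in every fit made, while its side of the threshold differed between them. The difference between AKB and pyruvate shrank to −0.11 without pyruvate replicates 3 and 4 (adjusted p = 0.163) and to −0.060 with the GC offset (0.581), and passed without pyruvate replicate 1 (0.0249) or 2 (0.0391). By DESeq2's Wald test on all 12 libraries it was −0.19 (adjusted p = 0.0079).

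STAT5B, the neighbour of STAT5A on chromosome 17, did not show the same order of groups. It was at 234.6, 239.6, 234.6 and 244.2 CPM in untreated cells, at 229, 238.7, 229.5 and 230.4 CPM with AKB, and at 220, 224.9, 212.9 and 210.8 CPM with pyruvate. The pyruvate libraries were all below the untreated ones, as for 6% of genes. They were also all below those with AKB, a position that 7.08% of genes shared. The log2 difference was −0.13 with pyruvate (SE 0.047, adjusted p = 0.105) and −0.039 with AKB (adjusted p = 0.799). STAT5B passed with pyruvate with the GC offset (log2 −0.20, adjusted p = 0.0226), by DESeq2 (−0.12, 0.0182) and without pyruvate replicate 2 (−0.15, 0.0397), and not without replicates 3 and 4 (−0.098, 0.285). AKB against pyruvate gave a log2 difference of 0.095 (adjusted p = 0.234). That difference passed with the GC offset (0.15, 0.0481) and not by DESeq2 (0.079, 0.159).

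PIM1, a serine/threonine kinase that promotes survival and growth, was the member with the highest estimate with AKB. It was at 373.1, 389.9, 382.7 and 390.5 CPM in untreated cells and at 451.3, 456.8, 438.9 and 441 CPM with AKB. All 4 AKB libraries were above the untreated ones, as for 8.74% of genes, and the log2 difference was 0.22 (SE 0.091, adjusted p = 0.321). With pyruvate PIM1 was at 359.7 and 331.1 CPM in replicates 1 and 2, below the untreated range, and at 445.9 and 462.1 CPM in replicates 3 and 4, above it.

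The fit to all 12 libraries uses 1 estimate of the spread for the 3 groups, this split included. Without replicates 3 and 4 the AKB difference was again 0.22, with an adjusted p of 0.00429, and with the 8 untreated and AKB libraries alone 0.22 (0.00299). With the GC offset it was 0.17 (adjusted p = 0.0236). The AKB difference did not pass by DESeq2's Wald test (0.21, adjusted p = 0.319). Nor did it pass when any single library was left out (edgeR's adjusted p from 0.141 to 0.568). AKB against pyruvate gave a log2 difference of 0.16 (adjusted p = 0.293), of 0.37 without replicates 3 and 4 (0.00313) and of 0.28 with the GC offset (0.00176). By DESeq2's Wald test that difference was 0.14 and did not pass (adjusted p = 0.354). The estimate with pyruvate against untreated cells was 0.058 (adjusted p = 0.676), −0.15 without replicates 3 and 4 (0.146) and −0.11 with the GC offset (0.115).

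PIM2, the related kinase on the X chromosome, was at 158.3, 157.8, 165.6 and 144.4 CPM in untreated cells. It was at 150.8, 142.6, 136.6 and 146.8 CPM with AKB and at 130.6, 134.1, 152.1 and 156 CPM with pyruvate, and both ranges overlapped the untreated one. The log2 differences were −0.12 with AKB (SE 0.072, adjusted p = 0.533) and −0.13 with pyruvate (SE 0.072, adjusted p = 0.243). With the GC offset PIM2 passed with pyruvate (−0.27, adjusted p = 0.0125), and without replicates 3 and 4 it did not (−0.24, 0.0954).

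**Figure D2:**
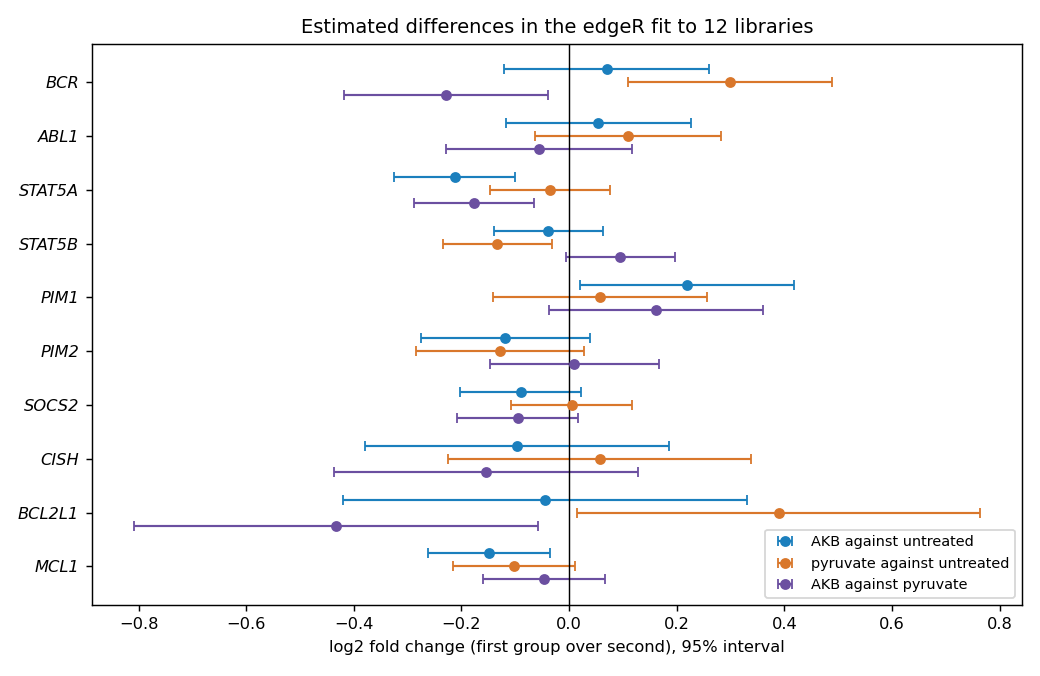
Log2 fold changes of the 10 genes (horizontal axis, first group over second) in the 3 comparisons, with 95% intervals from the fit to all 12 libraries. The intervals of BCL2L1 are the widest, from −0.81 to −0.06 for AKB against pyruvate, and those of STAT5B the narrowest.

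The feedback inhibitors did not pass in any fit made. CISH, whose promoter carries the 4 motifs printed above, was the least abundant of the 10, at 59.19, 66.47, 67.03 and 70.27 CPM in untreated cells and 57.93, 63.37, 65.06 and 59.4 CPM with AKB. With pyruvate it was at 63.48 and 49.73 CPM in replicates 1 and 2 and at 77.99 and 82.17 CPM in replicates 3 and 4. Replicate 2 lay below both other groups, replicate 1 within them and replicates 3 and 4 above them. Its log2 difference was −0.097 with AKB (95% interval −0.38 to 0.19, adjusted p = 0.826). With pyruvate it was 0.057 (adjusted p = 0.776) and −0.21 without replicates 3 and 4 (0.352).

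SOCS2, an SH2 protein that limits cytokine and growth hormone signalling, kept a narrow range. It was at 132.6, 137.8, 136.7 and 138.6 CPM in untreated cells, 126.7, 129.3, 133 and 123.8 CPM with AKB, and 142.8, 138.8, 135.6 and 130.5 CPM with pyruvate. The groups overlapped. The 95% interval of the log2 difference was −0.20 to 0.02 with AKB (adjusted p = 0.506) and −0.11 to 0.12 with pyruvate (adjusted p = 0.953). The pyruvate estimate for SOCS2 was 0.0051, 0.046 without replicates 3 and 4 (adjusted p = 0.692) and 0.037 with the GC offset (0.614).

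The survival genes BCL2L1 and MCL1 differed in how they spread. BCL2L1 was at 89.11, 103.9, 88.99 and 116.2 CPM in untreated cells and 85.58, 94.74, 106.5 and 99.22 CPM with AKB (log2 −0.044, 95% interval −0.42 to 0.33, adjusted p = 0.954). With pyruvate it was at 106.8 and 91.15 CPM in replicates 1 and 2 and at 156 and 167.2 CPM in replicates 3 and 4. The log2 difference with pyruvate was 0.39 (SE 0.17, adjusted p = 0.162), the largest of any member, and −0.0064 without replicates 3 and 4 (adjusted p = 0.989). With the GC offset it was 0.20 (adjusted p = 0.26). Without pyruvate replicate 2 it passed (0.53, adjusted p = 0.0294), and so did AKB against pyruvate (−0.57, 0.0307).

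MCL1, a short-lived relative of BCL-XL, was at 316.7, 317.1, 312.8 and 305 CPM in untreated cells and at 290, 281.7, 281.3 and 275.7 CPM with AKB, all below the untreated range, as for 8.41% of genes. The log2 difference was −0.15 (SE 0.052, 95% interval −0.26 to −0.04, adjusted p = 0.219). It passed without pyruvate replicates 3 and 4 (−0.15, adjusted p = 0.0142), with the 8 untreated and AKB libraries alone (−0.15, 0.0178) and by DESeq2 (−0.16, 0.04), and not with the GC offset (−0.11, 0.063). With pyruvate MCL1 was at 308.3, 303.3, 282.7 and 272.1 CPM (log2 −0.10, adjusted p = 0.208). The estimate was −0.033 without replicates 3 and 4 (adjusted p = 0.767) and −0.019 with the GC offset (0.764).

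The direction of the split of the pyruvate libraries followed the GC content of the members, while its size was not ordered by it. The mean of replicates 3 and 4 was above that of replicates 1 and 2 in the 7 members with a GC content of 55.1% or more, by 1.63-fold for BCL2L1, 1.42-fold for CISH, 1.31-fold for PIM1, 1.22-fold for ABL1, 1.22-fold for BCR, 1.16-fold for PIM2 and 1.10-fold for STAT5A. It was below in the other 3, STAT5B (51.8% GC), SOCS2 (47.3%) and MCL1 (45.1%), by 1.05-fold, 1.06-fold and 1.10-fold. Over all genes with at least 56% GC the median log2 ratio was 0.54, and over those below 48% GC it was −0.33. BCL2L1 (0.71) lay above the first of these medians and STAT5A (0.13) well below it. The part of GC content in these differences was not tested for single genes.

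**Figure D3:**
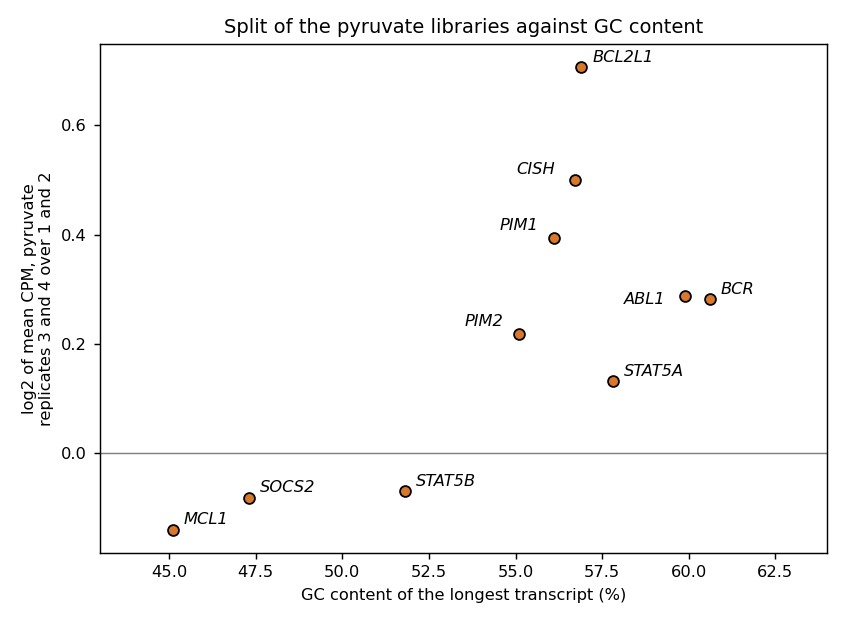
Log2 ratio of the mean CPM in pyruvate replicates 3 and 4 over replicates 1 and 2 (vertical axis) against the GC content of the longest transcript in percent (horizontal axis), with 1 point per gene. MCL1, SOCS2 and STAT5B, with the lowest GC content, lie below 0 and the other 7 genes above it.

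**Figure D4:**
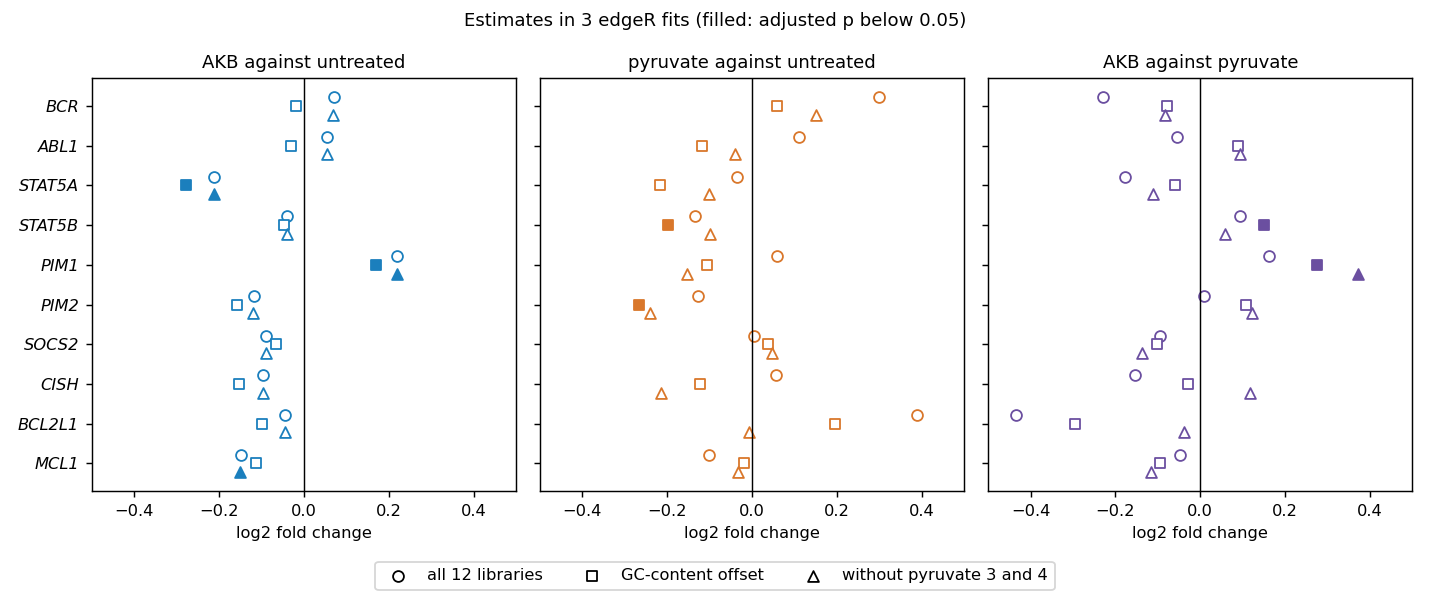
Log2 fold changes of the 10 genes (horizontal axes) in the 3 comparisons with all 12 libraries (circles), with the GC-content offset (squares) and without pyruvate replicates 3 and 4 (triangles), filled where the adjusted p was below 0.05. STAT5A and PIM1 with AKB are filled in both of the latter fits and open in the first, and the circles of BCL2L1 with pyruvate (0.39) and PIM1 with AKB against pyruvate (0.16) lie apart from the triangles (−0.0064 and 0.37).

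Levels were compared between genes as CPM per kilobase of the longest transcript in untreated cells (mean ± SD, n = 4). PIM1 was highest at 145 ± 3.06, above 97.5% of the 13047 genes with a length, followed by STAT5A at 110 ± 1.32. MCL1 (79.6 ± 1.43) and PIM2 (75.4 ± 4.25) overlapped each other. STAT5B stood at 46.7 ± 0.904, below STAT5A without overlap. ABL1 (41.4 ± 0.394), BCL2L1 (38.1 ± 5.03) and SOCS2 (36.6 ± 0.708) came next, and BCL2L1 overlapped both of its neighbours. BCR (18.0 ± 0.590) and CISH (13.0 ± 0.928) were lowest and did not overlap, with CISH above 63.4% of genes. The BCR value divides by all 7082 bases, of which 49.9% lie in the fusion, against 92% for ABL1. Counts of fusion and normal alleles are mixed in both, so the place of BCR among the genes is uncertain. The length used for CISH, 5042 bases, is that of its longest annotated transcript, and a shorter transcript in these cells would give a higher value.

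A further 100 genes of the pathway were listed by role, and 79 of them were tested. With AKB 2 were higher and 2 lower than in untreated cells (5.06% against 1.97% of all genes). With pyruvate 0 were higher and 1 lower (1.27% against 1.95%), and between the treatments 1 was higher with AKB and 0 lower (1.27% against 3.13%). Among 32 tested adaptors and effectors of BCR-ABL1, such as GRB2, GAB2, CRKL and the RAS and MAP kinase genes, edgeR called 0 in each comparison (median log2 0.0064 with AKB and −0.091 with pyruvate). Among 7 JAK kinases and other STATs it also called 0. Across all these lists DESeq2 called 4 of the 79 genes with AKB, 9 with pyruvate and 5 between the treatments, beside its 3.8%, 15.2% and 12.2% of all genes.

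The BH3-only gene PMAIP1 fell with both treatments. Its product, NOXA, binds and neutralises MCL1. PMAIP1 was at 31.96, 31.21, 34.81 and 28.11 CPM in untreated cells, 21.67, 18.4, 19.91 and 18.28 CPM with AKB, and 19.96, 19.36, 15.51 and 13.67 CPM with pyruvate. Both treated groups were wholly below the untreated one, as for 8.41% of genes with AKB and 6% with pyruvate. It fell by 0.69 on the log2 scale with AKB (SE 0.12, adjusted p = 0.0142) and by 0.88 with pyruvate (SE 0.12, adjusted p = 0.00489). Without pyruvate replicates 3 and 4 the values were −0.69 (adjusted p = 0.000666) and −0.68 (0.0099), and with the GC offset −0.61 (0.000155) and −0.64 (0.000157). The AKB call was lost without untreated replicate 3 (adjusted p = 0.0599), AKB replicate 2 (0.0581) or AKB replicate 4 (0.0538), and the pyruvate call with the 8 libraries of that comparison alone (0.0557). Of the 11 pro-apoptotic genes tested it was the only call in either comparison in the fit to all 12 libraries. Others that passed with the GC offset are given in the closing section. BCL2L11, which encodes BIM, stood at 39.4 ± 0.786, 39.5 ± 2.73 and 37.6 ± 2.89 CPM in untreated, AKB and pyruvate cells. BBC3, which encodes PUMA, was at 13.99 and 13.2 CPM in pyruvate replicates 3 and 4 against 2.893 to 7.238 CPM in the other 10 libraries (log2 0.79 with pyruvate, adjusted p = 0.213, and −0.31 without replicates 3 and 4, 0.723).

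Among 14 inhibitors of JAK-STAT signalling, the adaptor SH2B3 (LNK) fell and the STAT-binding protein PIAS3 rose with AKB. SH2B3 was at 146.5, 152.8, 138.9 and 164.5 CPM in untreated cells, at 117.7, 128, 116.4 and 122.7 CPM with AKB and at 132.6, 113.4, 130.9 and 127.6 CPM with pyruvate. Both treated groups lay below the untreated range, as for 8.41% of genes with AKB and 6% with pyruvate, and the log2 differences were −0.31 with AKB (SE 0.071, adjusted p = 0.0425) and −0.26 with pyruvate (SE 0.071, adjusted p = 0.0709). With pyruvate SH2B3 passed with the GC offset (−0.38, adjusted p = 0.0071) and by DESeq2 (−0.25, 0.0162), and not without replicates 3 and 4 (−0.29, 0.123). PIAS3 was at 25.1 ± 1.05 CPM with AKB against 19.8 ± 1.57 in untreated cells (log2 0.34, SE 0.074, adjusted p = 0.0352). With AKB both genes also passed with the GC offset (adjusted p = 0.00695 for SH2B3 and 0.0181 for PIAS3). They passed too without pyruvate replicates 3 and 4 (0.0121 and 0.013) and by DESeq2 (0.00146 and 0.00417). The SH2B3 call was lost without any single one of the 8 untreated and AKB libraries (adjusted p up to 0.153), and the PIAS3 call without any of these except untreated replicate 4 (up to 0.134). Without the filter on low counts the adjusted p of PIAS3 was 0.0655. The STAT5-induced inhibitors SOCS1 (3.79 ± 0.837 against 3.87 ± 0.942 CPM) and SOCS3 (23.0 ± 3.34 against 23.0 ± 2.48 CPM) had log2 differences of 0.030 and 0.0008 with AKB. The phosphatase gene PTPN6 was at 1.63 ± 0.556 CPM in untreated cells and 1.80 ± 0.402 CPM with AKB.

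Of 15 cytokine receptor genes that signal through STAT5 4 were tested, and KIT, the stem cell factor receptor, rose with AKB. KIT was scarce, with 13, 11, 12 and 10 counts in untreated cells, 23, 25, 29 and 16 with AKB and 11, 11, 12 and 12 with pyruvate. The log2 difference was 1.10 against untreated cells (SE 0.23, adjusted p = 0.0305) and 1.199 against pyruvate (SE 0.23, adjusted p = 0.0213). DESeq2's Wald test gave the former an adjusted p of 0.0513. With the GC offset both passed in edgeR (1.15, adjusted p = 0.00793, and 1.10, 0.00845). Without pyruvate replicates 3 and 4 the difference against untreated cells passed (1.10, 0.023). The call against untreated cells was lost without any of the 4 untreated libraries or AKB replicates 1, 2 or 3 (adjusted p up to 0.106). The call against pyruvate was lost without AKB replicates 1, 2 or 3 or pyruvate replicates 3 or 4 (up to 0.0785), without the latter pair together (0.0806), and with the 8 AKB and pyruvate libraries alone (0.107).

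Of 11 tested further genes that STAT5 is known to induce or repress, edgeR called 0 in each comparison. PIM3 stood at 27.2 ± 0.906 CPM in untreated cells, 28.5 ± 1.85 with AKB and 34.5 ± 11 with pyruvate, where replicates 3 and 4 were at 43.03 and 44.56 CPM and replicates 1 and 2 at 28.31 and 22.25. Its log2 difference with pyruvate was 0.35 (adjusted p = 0.207), and −0.10 without replicates 3 and 4 (0.698). Cyclin D2, CCND2, was at 51.3 ± 2.68, 45.9 ± 1.40 and 47.0 ± 3.55 CPM in the same order (log2 −0.16 with AKB, adjusted p = 0.331). BCL6, a repressor that STAT5 is known to silence, was at 3.51 ± 0.639, 3.49 ± 0.379 and 2.40 ± 0.319 CPM, with a log2 difference of −0.55 with pyruvate (adjusted p = 0.0904) and −0.63 without replicates 3 and 4 (0.245). OSM had 22 counts over all 12 libraries and was not tested. Among the kinases JAK2 was at 88.17, 85.44, 87.47 and 76.48 CPM in untreated cells and at 83.08, 84.48, 51.97 and 57.16 CPM with pyruvate, the last 2 values again from replicates 3 and 4 (log2 −0.29, adjusted p = 0.189, and −0.010 without them, 0.966). BCL2 was at 2.14 ± 0.181 CPM in untreated cells and 2.26 ± 0.650 CPM with AKB.

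**Figure D5:**
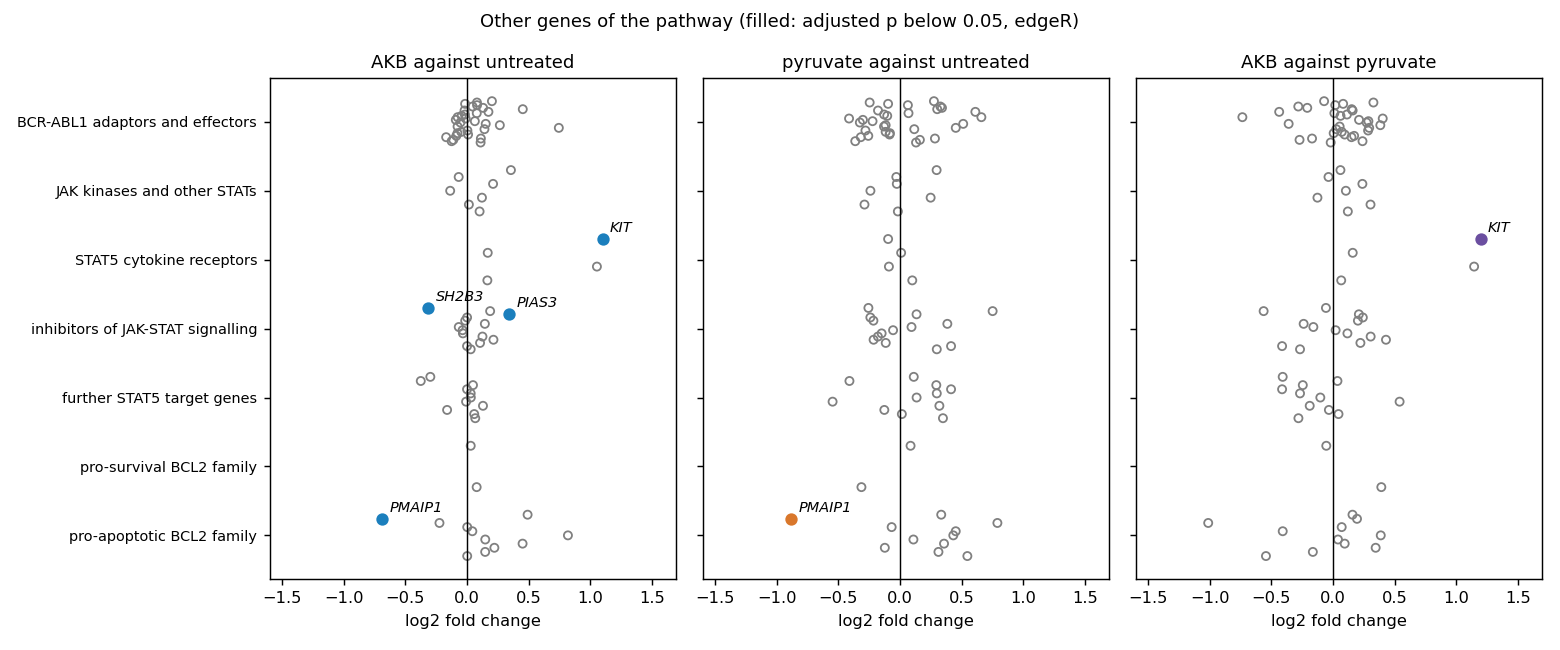
Log2 fold changes (horizontal axes) of the other tested genes of the pathway in the 3 comparisons, grouped by list, with 1 point per gene, filled and named where the adjusted p was below 0.05. PMAIP1 is filled with both treatments (−0.69 and −0.88), and KIT stands to the right with AKB (1.10 and 1.199).

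The expression pattern of STAT5A, the member with the smallest adjusted p, was compared with that of 10015 genes with a symbol and at least 5 CPM over the 12 libraries. Pearson's r of log2 CPM was highest for PHF19 (0.966), DTYMK (0.949) and RRP12 (0.949) and lowest for TPD52L1 (−0.951), GDE1 (−0.939) and KDELR3 (−0.937). PHF19 was at 306 ± 6.25 CPM in untreated cells, 246 ± 12.8 with AKB and 303 ± 22.3 with pyruvate. The points share library, depth and the GC trend, and the 3 genes highest in r have a GC content of 57.9% to 59.7% against 44.6% to 47.2% for the 3 lowest.

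Each of the authors' deposited tables has a single member (1 of 10) that passed an adjusted p of 0.05, against 4.9%, 12% and 10% of the genes given an adjusted p there. For untreated over AKB the authors' deposited table gives MCL1 a log2 fold change of 0.16 (adjusted p = 0.0325) and STAT5A 0.16 (0.282). For untreated over pyruvate the authors' deposited table gives PIM2 0.25 (adjusted p = 0.00338). For AKB over pyruvate the authors' deposited table gives BCL2L1 −0.35 (adjusted p = 0.0254) and PIM1 0.21 (0.0703). All 3 called members have the same direction there as in the fit to the deposited counts. ABL1 and CISH with pyruvate do not: the authors' deposited table gives 0.080 and 0.064 for untreated over pyruvate, where the fit has them higher with pyruvate by 0.11 and 0.057. For ABL1 the authors' deposited table gives 0.10 for AKB over pyruvate, and the fit −0.056. For BCR the authors' deposited table gives 0.013 for untreated over AKB, and the fit has it higher with AKB by 0.070. The names of the authors' deposited tables give DESeq2 as the tool. The settings that led from counts to those fold changes are not given in the sources at hand.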

How the data were processed

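Poly(A)-selected RNA was sequenced from 12 K562 libraries, per the labels' protocols. Tools listed in the submitters' processing notes are Salmon 1.2.1, DESeq2 1.26.0 and R 3.6.3, with no role stated. Genome build, annotation and settings: not given in the sources used here. A count table deposited by the authors holds estimated counts per gene, all of them whole numbers, and rounding changed 0 values. Their 3 tables of comparisons give, per the file headers, a mean normalised signal, a log2 fold change and its SE, a score (stat), a p-value and its adjusted form, with the group named first as numerator.

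Genes were kept by filterByExpr (minimum count 10), scaled by TMM and tested in edgeR 4.0.16 (R 4.3.3) by the quasi-likelihood test on all 12 libraries, with 1 term per group. P-values were adjusted by Benjamini-Hochberg over all 13598 genes, and a gene was called below 0.05. Every adjusted p is edgeR's unless another tool is named. Intervals are 95% intervals of the log2 fold change. The fit was tested on simulated data. Alternatives were DESeq2 size factors, no filter, DESeq2 1.42.0, a block for replicate number, fits to only the 8 libraries compared, a GC offset (a spline with 5 degrees of freedom per library), the GC offset with the block, the fit without pyruvate replicates 3 and 4, and the fit without each library in turn. Symbols came from a separate reference list of gene names. Lengths and GC content came from GENCODE 29, whose build may differ from the authors'.

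The members, lists and alternatives were chosen with earlier results of these data known. The genes named are the 10 members, up to 4 called genes per list and comparison, JAK2, PIM3, OSM, BCL6, CCND2, SOCS1, SOCS3, BCL2, BCL2L11, BBC3, PMAIP1 and PTPN6, and the genes most and least like the member with the smallest adjusted p. The genes in the last paragraph of the closing section lie outside this rule and were chosen after their values were seen.

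Some marker genes are not reported here.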

Additional observations from a re-analysis of the deposited data

Results flagged for a closer look

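STAT5B in AKB replicate 2 stood at 238.7 CPM, while the other 3 AKB libraries were at 229 to 230.4 CPM. The gap to the nearest of them took a share of 0.854 of the group's range, above the limit for 4 samples. This was 1 of 30 groups examined (10 genes in 3 groups), and about 1 in 20 groups passes that limit by chance.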

How the results depend on the processing

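Depth and 4 libraries a group limit precision for all members to differences of about the intervals given, and pyruvate replicates 3 and 4 enter the shared spread of every fit to all 12 libraries. Of the members, 0 were called in each comparison. By DESeq2's Wald test it was 2 with AKB, 2 with pyruvate and 1 between the treatments, with the GC offset 2, 2 and 2, and without pyruvate replicates 3 and 4 3, 0 and 1. With the 8 libraries compared it was 3, 0 and 0. Leaving out 1 library gave 0 to 1, 0 to 3 and 0 to 2. DESeq2 size factors and no filter on low counts left all 3 at 0.

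Over all genes the counts of 268 (AKB), 265 (pyruvate) and 426 (AKB against pyruvate) moved to 531, 1811 and 1494 by DESeq2, to 1339, 16 and 6 with the 8 libraries, and to 1142, 1273 and 1958 with the GC offset. Without pyruvate replicates 3 and 4 they were 1278 and 99 for the first 2 comparisons, and without the filter 152 and 214 for the last 2. Leaving out 1 library gave 92 to 357, 32 to 3611 and 68 to 2111. Over the pathway lists the counts of 4, 1 and 1 moved to 9 and 5 by DESeq2 for the last 2, to 10, 0 and 0 with the 8 libraries, to 12, 6 and 14 with the GC offset, and to 11 and 2 without pyruvate replicates 3 and 4 for the first and last. Leaving out 1 library gave 0 to 5, 1 to 28 and 0 to 18.

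Replicate numbers did not pair the libraries: the correlation of same-numbered libraries' deviations ran from −0.1 to 0.202 over 12 pairs. In each of the other groups at once, 1 of 12 libraries correlated best with the library of its own number. With the replicate block 0 members were called in each comparison, 158 and 565 genes with AKB and pyruvate, and 1 and 4 pathway genes. With AKB the block ended the calls of SH2B3 (adjusted p = 0.0892), PIAS3 (0.086) and KIT (0.0675), while PMAIP1 passed (0.0162). With the GC offset and the replicate block together it was 2, 3 and 1 members, 942, 1437 and 1962 genes, and 9, 5 and 12 pathway genes.

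Some estimates changed sign, and the cause was not tested. PIM2 with AKB against pyruvate went from 0.0097 to −0.0086 with DESeq2 size factors, −8e-04 without the filter, −0.0076 by DESeq2 and −0.0139 with the 8 libraries. With the GC offset BCR (−0.0189) and ABL1 (−0.0303) reversed with AKB, ABL1 (−0.119), PIM1 (−0.106) and CISH (−0.1235) with pyruvate, and ABL1 (0.0887) between the treatments. With the replicate block added to the offset these were −0.0208, −0.0312, −0.1217, −0.1068, −0.127 and 0.0905. Without pyruvate replicates 3 and 4 ABL1 (−0.0398), PIM1 (−0.1525), CISH (−0.2146) and BCL2L1 (−0.0064) reversed with pyruvate, and ABL1 (0.094) and CISH (0.1173) between the treatments. Leaving out 1 library put BCL2L1 with AKB between −0.0946 and 0.0381 and PIM2 between the treatments from −0.0403 to 0.0378. With pyruvate it put SOCS2 between −0.0045 and 0.039, STAT5A between −0.052 and 0.0042, PIM1 between −0.0053 and 0.1362, and CISH between −0.0288 and 0.1806. None of the values with the reversed sign passed the test.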

Other observations

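Several further genes of the pathway passed the edgeR test with AKB against untreated cells with the GC offset and also in the fit that omits pyruvate replicates 3 and 4, but not in the fit to all 12 libraries. With the offset 12 of the 79 listed genes passed with AKB, against 8.4% of all genes. The fit without pyruvate replicates 3 and 4 called 9.17% of all genes. MAPK3, which encodes the kinase ERK1, had a log2 difference of 0.36 with the offset (adjusted p = 0.00669) and 0.45 without those libraries (0.00977). STAT6 had 0.31 (0.00689) and 0.36 (0.0142), and PIK3R1, a regulatory subunit of PI3-kinase, 0.33 (0.0173) and 0.27 (0.0437). BMF, a BH3-only gene, had 0.78 (0.0415) and 0.82 (0.0379), and the phosphatase gene DUSP1 −0.41 (0.00927) and −0.38 (0.0251). DUSP1 was lower with pyruvate too, and passed with the offset (−0.55, 0.0031) but not in the fit to all 12 libraries (−0.41, 0.0629). BMF was scarce, at a mean of 1.43 CPM in untreated cells. Between the treatments 14 of the 79 listed genes passed with the offset, against 14.4% of all genes. MAPK3 and BOK, a pro-apoptotic BCL2 relative, were higher with AKB than with pyruvate in both fits. The log2 differences were 0.34 (0.00717) and 0.50 (0.0297) for MAPK3 and 0.63 (0.00979) and 0.91 (0.0197) for BOK. In the fit to all 12 libraries they were 0.15 (0.557) for MAPK3 and 0.35 (0.362) for BOK, and neither passed. For AKB against pyruvate, the fit without pyruvate replicates 3 and 4 called 4.36% of all genes. BOK was scarce too, at a mean of 3.31 CPM in untreated cells. With the offset it was lower with pyruvate than in untreated cells (−0.54, 0.0273).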
